A study of Mus musculus with 6 samples.

Results

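The genes described here are 9 that guide B cells to a tissue or hold them there: the chemokine receptor genes Cxcr4, Cxcr5, Ccr7 and Ccr9, the sphingosine-1-phosphate receptor gene S1pr1, and the integrin chain genes Itga4, Itgb1, Itgb7 and Itgal. They were taken by name, and each was read by the only probe set annotated to it alone, so all 9 were among the 19733 genes tested. Their levels came from 6 Affymetrix arrays of mouse bone marrow pre-B cells carrying BCR-ABL1, the fusion kinase of B cell acute lymphoblastic leukaemia, and floxed alleles of Ppp2r1a (Ppp2r1afl/fl), which encodes the scaffold subunit of the phosphatase PP2A. In 3 arrays the cells had then received a Cre vector, which removes the floxed gene, and in the other 3 an empty vector (EV). Both groups share BCR-ABL1, the floxed alleles and a second transduction, and the labels call the EV cells wild type. The sources used here give no age, strain or time after Cre, and do not say whether transduced cells were selected or repeats were separate cultures. The p-values therefore rest on array-to-array spread, part or all of which may be technical. No array held Cre in cells without floxed alleles, so the action of Cre and the loss of Ppp2r1a cannot be told apart in any value below.

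B cell precursors stay in the marrow while CXCR4 senses the chemokine CXCL12 and the integrin pair of ITGA4 and ITGB1 grips VCAM1 and fibronectin on stromal cells. Cells that mature leave along a gradient of sphingosine-1-phosphate read by S1PR1, and CXCR5 then draws them into follicles, CCR7 into T cell zones and CCR9, with the pair of ITGA4 and ITGB7, into the gut. ITGAL pairs with ITGB2 to bind ICAM1 on vessel walls and on other lymphocytes. The comparison of Cre with EV therefore sets marrow retention genes beside genes of later homing in the same cells.

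Levels are RMA values on the log2 scale, on which the array medians lay between 5.22 and 5.27, and a change is the Cre mean minus the EV mean, given with its standard error (SE) from limma. A gene was said to rise or fall at a Benjamini-Hochberg adjusted p below 0.05 over all 19733 genes. The deleted gene Ppp2r1a read 7.12, 6.98 and 6.92 in Cre and 9.06, 9.05 and 9.06 in EV. All 9 measured pre-B markers, among them Cd79a, Pax5 and Vpreb1, were above the array medians, with a mean level of 10.96 to 10.98 over Cre arrays and 10.96 to 11.01 over EV arrays. Their changes went both ways, 6 up and 3 down, from -0.24 for Ebf1 to 0.14 for Cd79a, and none passed. For 4 of the 9 the groups did not overlap (44.4%, beside 22.5% of all genes). Markers of myeloid cells (10 of 10), NK cells (7 of 7), erythroid cells (4 of 4) and endothelium (6 of 6) lay below the medians, as did 8 of 10 T cell, 6 of 8 stromal and 3 of 6 plasma cell markers. One marker of these lists passed the test: Cd28, from the T cell list, rose by 1.20 (SE 0.12; adjusted p = 0.00173). The 9 other T cell markers did not pass and went both ways, from -0.23 for Cd5 to 0.13 for Cd4. Among them, Cd3d, Cd3e and Cd3g differed by -0.09, -0.02 and -0.04.

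Cxcr5 rose 1.94-fold in the Cre cells, Itga4 fell 1.30-fold, and Cxcr4 read nearly alike in all 6 arrays. Of the 9 genes, 2 passed the test, 1 rise and 1 fall, where 3.49% of all genes tested passed (1.35% rose and 2.14% fell). For 4 of the 9 the groups did not overlap: Cxcr5 and Itgb7 were higher in every Cre array, and Itga4 and Itgb1 lower. Over all genes that share was 22.5% (10.3% higher and 12.2% lower). The 9 were chosen with earlier results of these data known, so neither count is independent of them. The median change of the 9 was 0.11, beside -0.003 over all genes tested. With whole-culture RNA, a change in the level per cell and a change in the share of cells that express the gene cannot be told apart.

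**Figure D1:**
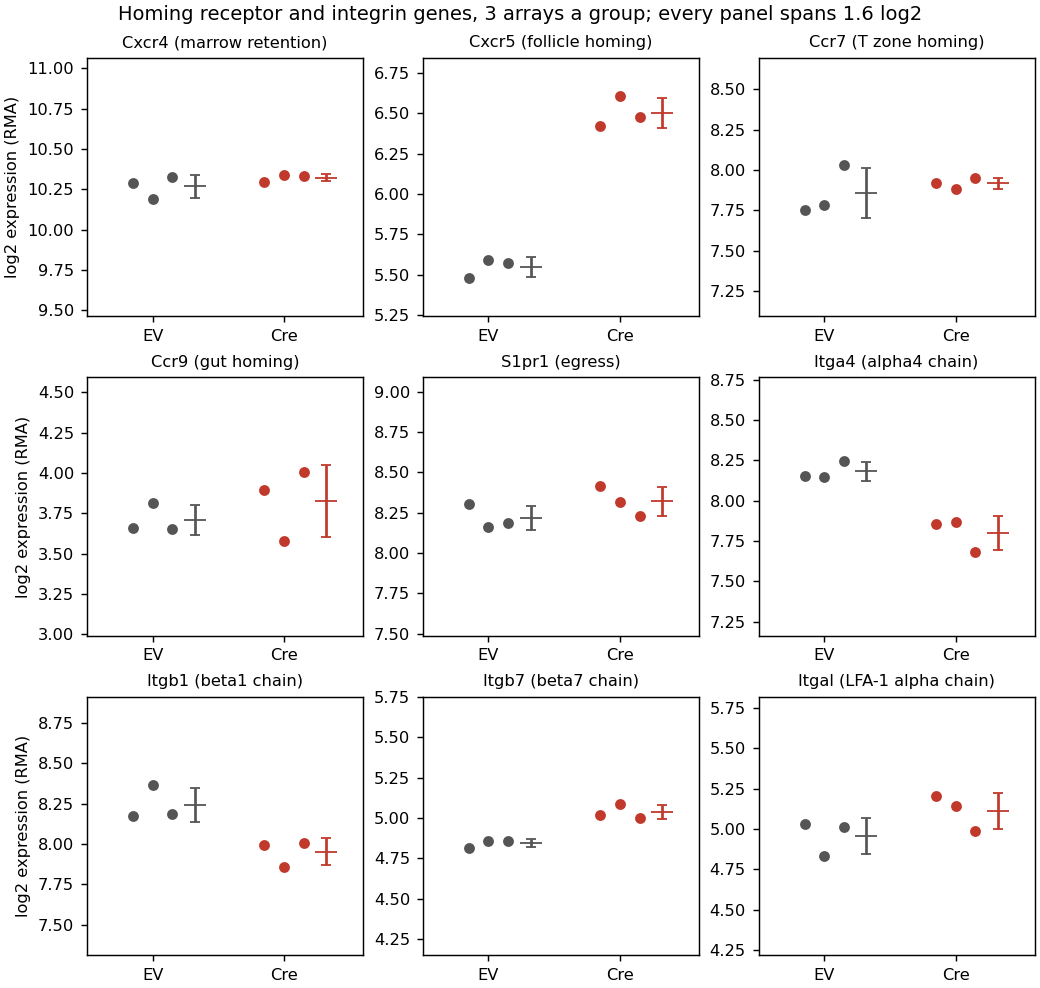
Each panel plots 1 gene, with its log2 RMA level on the vertical axis and the EV (grey) and Cre (red) arrays on the horizontal axis; points are arrays, and the bar beside them is the mean ± SD of 3 arrays. Every panel spans the same log2 range, so Cxcr5 shows the widest gap (5.55 in EV, 6.50 in Cre), Itga4 and Itgb1 lie lower in Cre, and Cxcr4 hardly differs.

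Cxcr4, the receptor that keeps precursors next to CXCL12-producing stroma, was at 10.30, 10.34 and 10.33 in Cre and at 10.29, 10.19 and 10.33 in EV. The groups overlapped, with the lowest value in the second EV array and the other 5 arrays within a few hundredths of each other. The change was 0.05 (SE 0.07; adjusted p = 0.769), and its 95% interval ran from -0.10 to 0.21 on the log2 scale, a Cre level between 0.933 and 1.15 times that of EV. Ackr3, which encodes the other receptor for CXCL12 and was picked after its values were seen, was dim, at 3.34 ± 0.09 in Cre and 3.38 ± 0.29 in EV (SD, n = 3).

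Cxcr5, the receptor for the follicular chemokine CXCL13, was at 6.42, 6.61 and 6.48 in Cre and at 5.48, 5.59 and 5.57 in EV. Every Cre array stood well above every EV array, and the EV values lay just over the array medians. The rise was 0.96 (SE 0.07; adjusted p = 0.000602), 1.94-fold with a 95% interval from 1.72-fold to 2.19-fold. It passed in each of the 6 fits with 1 array left out (change 0.90 to 1.00; adjusted p 0.0027 to 0.00403). The genes whose values over the 6 arrays, taken relative to their own EV mean, came closest to Cxcr5 were Sln, a regulator of the calcium pump of muscle (root mean square distance 0.05 log2), Hnrnpll, an RNA-binding splicing regulator of lymphocytes (0.06), and Cd48, a surface ligand of the SLAM family (0.07). These 3 changed by 0.93, 1.02 and 0.98.

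Neither of the other chemokine receptors of later homing passed the test. Ccr7, which responds to the T zone chemokines CCL19 and CCL21, was at 7.92, 7.88 and 7.95 in Cre and at 7.76, 7.79 and 8.03 in EV. The third EV array was the highest of all 6, so the groups overlapped, and the change of 0.06 (SE 0.09; adjusted p = 0.809) had a 95% interval from -0.14 to 0.26. Ccr9, which responds to the gut and thymus chemokine CCL25, was at 3.89, 3.58 and 4.01 in Cre and at 3.66, 3.81 and 3.65 in EV. All of these lie well below the array medians, the second Cre array is the lowest of all, and the change of 0.12 (SE 0.12; adjusted p = 0.699) is open to both directions (95% interval -0.15 to 0.39). A change at so low a level understates any fold change.

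S1pr1, the egress receptor, was at 8.42, 8.32 and 8.23 in Cre and at 8.30, 8.16 and 8.18 in EV. The groups overlapped, since the first EV array lay above the third Cre array. Its change was 0.11 (SE 0.08; adjusted p = 0.575; 95% interval -0.07 to 0.28). Cd69, whose protein pulls S1PR1 from the cell surface, read 8.21 ± 0.08 in Cre and 7.93 ± 0.11 in EV (SD, n = 3), a difference of 0.28 (SE 0.08; adjusted p = 0.132).

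Within each array, the log2 level of Cxcr5 minus that of Cxcr4 gives the follicle receptor relative to the marrow receptor. With the EV mean set to 0, this difference was 0.85, 0.99 and 0.87 in Cre and -0.09, 0.13 and -0.03 in EV. The Cre mean lay 0.90 higher, with SDs of 0.08 in Cre and 0.11 in EV. An exact two-sided permutation test over the arrays gave p = 0.1, the smallest that 3 against 3 arrays allow, and so cannot pass the threshold. The difference uses changes alone and says nothing of which transcript was the more abundant.

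**Figure D2:**
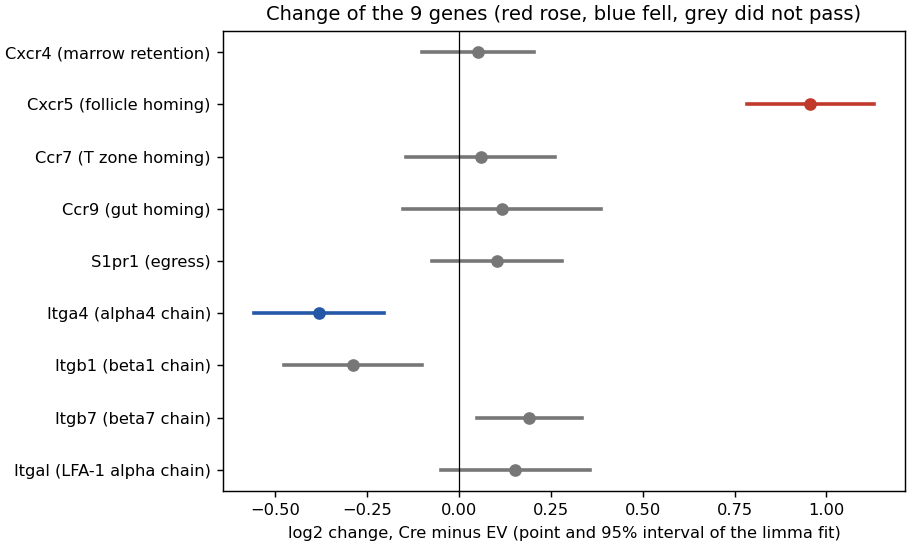
The log2 change (Cre minus EV) of each of the 9 genes is plotted on the horizontal axis with the 95% interval of the limma fit; red marks a rise, blue a fall and grey a gene that did not pass. Cxcr5 lies alone at 0.96, the intervals of Itga4, Itgb1 and Itgb7 leave out 0, and those of Cxcr4, Ccr7, Ccr9, S1pr1 and Itgal include it.

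Itga4, the alpha chain shared by both integrin pairs, was at 7.85, 7.87 and 7.68 in Cre and at 8.15, 8.14 and 8.25 in EV. Every Cre array was below every EV array, with the third Cre array the lowest. The fall was 1.30-fold (change -0.38, SE 0.08; adjusted p = 0.039). It lost the call when any one of the 6 arrays was left out (change -0.41 to -0.32; adjusted p 0.0843 to 0.126). The genes closest to Itga4 over the 6 arrays were Tnfrsf19, a receptor of the TNF family (distance 0.03 log2), Prrg4, a membrane protein with a vitamin K-dependent domain (0.03), and Tmem121, a membrane protein (0.04), with changes of -0.36, -0.37 and -0.37.

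Its marrow partner Itgb1, the beta chain of the VCAM1 and fibronectin receptor, was at 7.99, 7.86 and 8.01 in Cre and at 8.18, 8.37 and 8.18 in EV. All Cre arrays were lower than all EV arrays, and the second EV array was the highest. The change was -0.29 (SE 0.08), which did not pass (adjusted p = 0.119). It did pass with eBayes trend and robust settings (adjusted p = 0.0136) and when the dimmer 50% of genes were left out (0.0332). Itgb1 did not pass in any fit with 1 array left out (limma adjusted p 0.175 to 0.3). Nor did it with the replicate block (0.242) or with the dimmer 25% left out (0.0721). Its gut partner Itgb7 was at 5.02, 5.09 and 5.002 in Cre and at 4.82, 4.86 and 4.86 in EV. The direction was the opposite one, with every Cre array above every EV array at levels below the array medians, and the change of 0.19 (SE 0.06) did not pass either (adjusted p = 0.166).

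The promoters of these 3 genes are shown because Itga4 and Itgb1 were both lower in Cre and Itgb7 was higher. ITGA4 pairs with either beta chain. RefSeq promoter entries (GRCm38.p6) were matched for 5 of the 9 genes, the others being Cxcr5, Ccr7, S1pr1 and Itgal. The 250 bases before each start site are printed 5′ to 3′ on the gene's own strand: Itga4 at chr2:79255176-79255425 (plus strand), Itgb1 at chr8:128685404-128685653 (plus) and Itgb7 at chr15:102231936-102232185 (minus). Capitals mark the letters CACCC on either strand (GGGTG when on the other), the core bound by Krüppel-like factors such as KLF2.
Itga4: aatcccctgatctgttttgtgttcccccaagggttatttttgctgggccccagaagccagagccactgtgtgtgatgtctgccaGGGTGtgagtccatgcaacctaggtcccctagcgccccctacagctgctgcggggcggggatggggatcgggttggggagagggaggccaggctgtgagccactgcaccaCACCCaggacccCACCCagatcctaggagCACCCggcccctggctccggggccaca
Itgb1: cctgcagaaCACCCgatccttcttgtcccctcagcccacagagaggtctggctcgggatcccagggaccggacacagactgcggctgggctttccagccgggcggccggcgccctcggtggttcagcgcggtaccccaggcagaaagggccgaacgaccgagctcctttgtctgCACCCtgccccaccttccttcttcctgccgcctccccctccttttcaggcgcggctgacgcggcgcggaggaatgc
Itgb7: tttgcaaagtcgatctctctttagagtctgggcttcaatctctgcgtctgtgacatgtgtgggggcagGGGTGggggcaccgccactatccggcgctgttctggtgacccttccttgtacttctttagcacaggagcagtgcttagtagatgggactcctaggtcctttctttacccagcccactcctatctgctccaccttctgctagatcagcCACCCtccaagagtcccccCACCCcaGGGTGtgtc

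The motif CACCC was found 4 times before Itga4, 2 times before Itgb1 and 4 times before Itgb7. Of 32851 promoter windows of this length in the table, 52% held it at least once, 21.1% at least 2 times and 2.14% at least 4 times. The E-box CANNTG, the core bound by E proteins, was found once before Itga4 and once before Itgb7, and 66.2% of all windows held it. Neither the octamer ATGCAAAT nor the forkhead motif GTAAACA, searched on both strands, was in these windows, nor in those of Cxcr4 and Ccr9 (1.6% and 3.17% of all windows). Itga4 and Itgb7 had the same counts of both matched motifs. Whether any of these motifs bears on the changes was not tested.

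With the EV mean set to 0, Itgb7 minus Itgb1 was 0.42, 0.63 and 0.39 in Cre and 0.04, -0.11 and 0.07 in EV. The gut chain stood 0.48 higher relative to the marrow chain in Cre, with SDs of 0.13 and 0.10 and no overlap. Neither chain passed on its own, and Itgb7 lay below the array medians. This difference, too, says nothing of which transcript was the more abundant. The exact two-sided permutation p was again 0.1, the smallest possible, for the second of 2 such differences computed (Benjamini-Hochberg leaves both at 0.1).

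**Figure D3:**
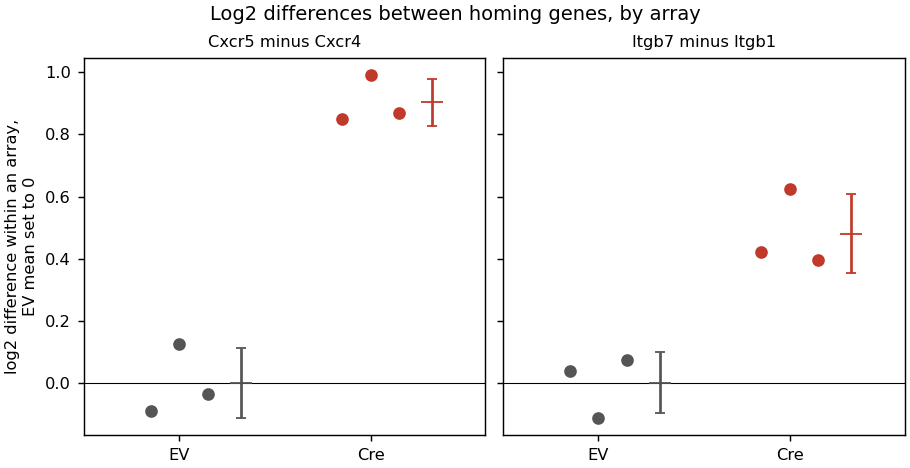
The vertical axis gives, for each array, the log2 level of one gene minus that of another with the EV mean set to 0: Cxcr5 minus Cxcr4 on the left and Itgb7 minus Itgb1 on the right; bars are the mean ± SD of 3 arrays. The Cre arrays lie at 0.85 to 0.99 and at 0.39 to 0.63, above all EV arrays in both panels.

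Itgal, the alpha chain of the ICAM1 receptor LFA-1, was at 5.21, 5.14 and 4.99 in Cre and at 5.03, 4.83 and 5.01 in EV. The groups overlapped, as the third Cre array lay below 2 of the EV arrays, and the change was 0.15 (SE 0.09; adjusted p = 0.457). Its partner Itgb2, picked after its values were seen, was at 7.24 ± 0.09 in Cre and 7.08 ± 0.06 in EV (SD, n = 3), a difference of 0.16 (SE 0.07; adjusted p = 0.339).

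Around these 9 genes, most of the homing and adhesion machinery measured did not pass. Over 8 lists of related genes, 171 of 180 distinct entries were tested, and 5 rose and 5 fell (5.85%, beside 3.49% of all genes), with a median change of 0.02. The lists were drawn up with earlier results of these data known, so no count from them is independent of those results. Unadjusted p-values below 0.05, given for lists with no passing gene, were found for 16.1% of all genes tested. Of 19 other chemokine receptors none passed in limma (1 had an unadjusted p below 0.05), and the pair with the smallest p was Cxcr1, at 0.23 (SE 0.08), and Ccr6, at -0.16 (SE 0.11). Of 16 genes of sphingosine-1-phosphate handling and other positioning receptors none passed in limma (4 at an unadjusted p below 0.05), with Cd69 first and the cannabinoid receptor Cnr2 next, at 0.22 (SE 0.08). Of 11 ligands of the homing receptors and integrins none passed in limma (4 at an unadjusted p below 0.05). Icam1 differed by -0.24 (SE 0.07), and Cxcl12, dim at 3.62 ± 0.09 in Cre and 3.83 ± 0.03 in EV (SD, n = 3), by -0.21 (SE 0.07).

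None of 22 other integrin chains passed in limma with the default settings over all arrays (3 had an unadjusted p below 0.05, beside 16.1% of all genes). Itga6, the alpha chain of a laminin receptor that pairs with Itgb1 or Itgb4, was at 6.14, 5.79 and 5.82 in Cre and at 6.27, 6.42 and 6.43 in EV. All Cre arrays were lower, the first Cre array least so, and the difference was -0.46 (SE 0.11; adjusted p = 0.07). Without Cre replicate 1 it passed, at -0.57 (adjusted p = 0.0258), as it did over all 6 arrays with trend and robust settings (0.0128) and with the dimmer 25% (0.0431) or 50% (0.0189) of genes left out. Itga6 did not pass when any other array was left out (limma adjusted p 0.11 to 0.205) or with the replicate block (0.158). Nor did it pass with the further normalizations, array weights or averaged probe sets. Itgad, the alpha chain of a leukocyte integrin, differed by -0.31 (SE 0.08; adjusted p = 0.0819), and by -0.19 when its probe sets were averaged.

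Of 32 genes that switch integrins on or link them to actin, 1 rose and 0 fell (3.12%, beside 3.49% of all genes). Their median change was 0.004. Ptk2b, the focal adhesion kinase relative PYK2, was at 8.24, 8.24 and 8.30 in Cre and at 7.79, 7.82 and 7.91 in EV. Every Cre array was higher, by 0.42 on average (SE 0.06; adjusted p = 0.0137), but the call did not hold when replicate 2 or 3 of Cre, or replicate 1 or 2 of EV, was left out (adjusted p up to 0.0589). Tln2, a talin, differed by -0.32 (SE 0.08; adjusted p = 0.0791). The talin Tln1, the kindlin Fermt3 and the small GTPase gene Rap1b, all 3 picked after their values were seen, differed by -0.03, 0.11 and 0.10 and did not pass.

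Of 21 other adhesion genes, 1 fell and 0 rose (4.76%, beside 3.49% of all genes). Lgals1, which encodes galectin-1, a glycan-binding protein that binds the pre-B cell receptor, was at 10.09, 10.15 and 10.004 in Cre and at 11.22, 11.20 and 11.20 in EV. The EV arrays lay within hundredths of each other and all above the Cre arrays, a fall of 2.19-fold (change -1.13, SE 0.06; adjusted p = 0.000139) that passed in all 6 fits with 1 array left out. Pecam1, an adhesion molecule of the immunoglobulin family, differed by 0.29 (SE 0.07; adjusted p = 0.0837), and Cd44, the hyaluronan receptor, picked after its values were seen, by 0.05 (SE 0.06).

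The signalling chain behind the receptors held 6 of the 10 passing genes: of 31 measured, 3 rose and 3 fell (19.4%, beside 3.49% of all genes). The list was drawn up with earlier results of these data known, so this share is not independent of them. Gnai1, an inhibitory G protein alpha subunit through which chemokine receptors can signal, was at 6.36, 6.19 and 6.27 in Cre and at 8.03, 8.06 and 8.33 in EV. The gap between the groups was far wider than the spread in either, a fall of 3.65-fold (change -1.87, SE 0.10; adjusted p = 8.45e-05). Its relatives Gnai2 and Gnai3, picked after their values were seen, differed by 0.20 (SE 0.06; adjusted p = 0.164) and 0.05 (SE 0.07; adjusted p = 0.799). Rgs1, which speeds the shut-off of inhibitory G proteins and so damps chemokine responses, was at 5.94, 6.01 and 6.02 in Cre and at 5.15, 5.42 and 5.14 in EV, a rise of 1.69-fold (adjusted p = 0.00465). Gna13, the alpha subunit through which S1PR2 confines B cells, rose 1.35-fold, from 8.99 ± 0.03 to 9.42 ± 0.06 (SD, n = 3; adjusted p = 0.0111). Gnai1, Rgs1 and Gna13 passed in all 6 fits with 1 array left out.

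The other genes of that list that passed were less steady. Dock8, an exchange factor for the GTPase CDC42 that B cells need to move and to persist, rose 1.34-fold (change 0.42, SE 0.07; adjusted p = 0.0148), and of the 6 smaller fits passed only in that without Cre replicate 2 (adjusted p up to 0.062). Arrb1, an arrestin that uncouples receptors from G proteins, fell 1.46-fold (change -0.55, SE 0.09; adjusted p = 0.0168) and did not pass when replicate 2 or 3 of either group was left out (adjusted p up to 0.0694). Rgs19, a further G protein brake, fell 1.29-fold (change -0.36, SE 0.06; adjusted p = 0.0244) and passed in none of them (up to 0.0909). For these 3 genes, picked because they passed on these same arrays, the groups did not overlap, as was so for 22.5% of all genes.

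Of 19 transcription regulators with known roles at homing genes or in B cell stages, 1 rose and 1 fell. That is 10.5%, beside 3.49% of all genes. The groups did not overlap for 12 of the 19 (63.2%, beside 22.5% of all genes), 10 of them higher in Cre. This list, like the others, was drawn up with earlier results known, so these shares are not independent of them. Pou2af1, a B cell coactivator of octamer factors, was at 10.71, 10.67 and 10.74 in Cre and at 10.43, 10.39 and 10.41 in EV, a rise of 1.23-fold (adjusted p = 0.039) that did not pass in any of the 6 smaller fits (adjusted p up to 0.128). Id3, an inhibitor of E proteins, was at 8.19, 8.24 and 8.23 in Cre and at 8.71, 8.85 and 8.56 in EV, a fall of 1.40-fold (adjusted p = 0.0228) that in those fits passed only without EV replicate 3 (adjusted p up to 0.0861). Klf2 and Foxo1, which drive S1pr1 and other homing genes in lymphocytes and were picked after their values were seen, differed by 0.10 (SE 0.07; adjusted p = 0.542) and 0.08 (SE 0.06; adjusted p = 0.562). Id2, also picked after its values were seen, differed by 0.91 with a wide spread (SE 0.19; adjusted p = 0.0509).

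**Figure D4:**
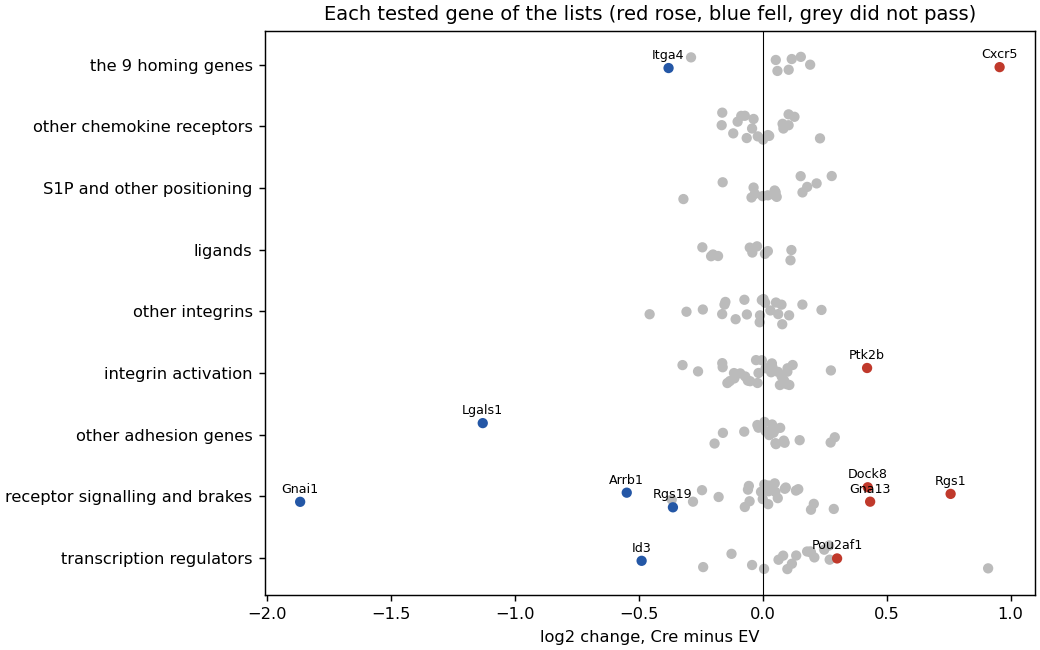
Each point is 1 tested gene of a list, with its log2 change (Cre minus EV) on the horizontal axis and the lists on the vertical axis, the points jittered vertically; red points rose, blue points fell and grey points did not pass. Most genes lie near 0, and the labelled genes range from Gnai1 at -1.87 to Cxcr5 at 0.96.

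**Figure D5:**
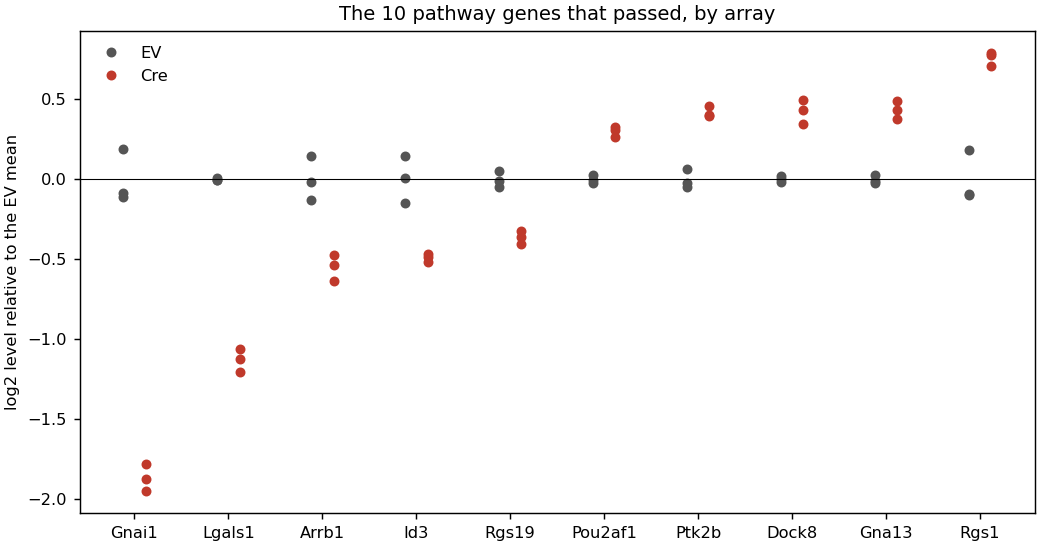
The 10 genes of the related lists that passed are shown on the horizontal axis, with the log2 level of each EV (grey) and Cre (red) array relative to the EV mean on the vertical axis. No gene has a Cre array within the range of its EV arrays, as was so for 22.5% of all genes tested. The 10 were chosen for passing on these same arrays, so such gaps follow largely from the choice. Gnai1 and Lgals1 lie lowest in Cre and Rgs1 highest.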

How the data were processed

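Expression was measured on 1-colour Affymetrix arrays of total RNA from 3 Cre and 3 EV samples, grouped by title. The authors deposited 1 log2 value per probe set and array, made with RMA per the submitters' processing notes; no version is given in the sources used here. RMA makes the arrays' distributions alike, so changes are relative to other genes. Detection calls were not used. The number of arrays limits the precision.

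Probe sets were named through the platform annotation and RefSeq gene IDs: of 25006, 21467 had 1 gene symbol, 1521 several and 2018 none. For 931 genes with several probe sets the one with the highest mean over the 6 arrays was used, leaving 19733 genes. Cre was compared with EV in limma 3.58.1 (R 4.3.3; lmFit, eBayes, no block, no filter), tested on simulated data beforehand. Tables and plots used Python 3.11.15, pandas 2.3.3, scipy 1.17.1 and matplotlib 3.10.9. The 9 genes, the lists and the rules were chosen with earlier results of these data known. Named genes are the 9, Ppp2r1a, up to 6 genes that passed per list (or the 2 with the smallest p where fewer than 2 passed), and the 3 closest to each passing member. List entries without a probe set of their own were not analysed here. The labels do not say that the repeat numbers pair the arrays, so the main fit had no block. Alternatives were a replicate block, 2 further normalizations, 2 filters on dim genes, trend and robust settings, array weights, averaging probe sets and leaving out each array.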

Additional observations from a re-analysis of the deposited data

How the results depend on the processing

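No direction of the 9 genes or of the 2 within-array differences reversed under any alternative run. Nor did that of Ppp2r1a, of the list genes named by rule or of the family genes that passed. The closest genes, the markers and the genes picked after their values were seen were not examined in this way. Leaving out 1 array at a time gave 362 to 424 genes changed in place of 689, 1 of the 9 homing genes in place of 2, 4 to 7 genes of the related lists in place of 10, and an Itga4 change between -0.41 and -0.32, no longer past the threshold. The within-array difference ranged from 0.86 to 0.97 for Cxcr5 minus Cxcr4 and from 0.41 to 0.52 for Itgb7 minus Itgb1 when arrays were left out.

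Same-numbered arrays of the groups had residual correlations of 0.009, -0.012 and 0.03, and differently numbered ones -0.028 to 0.017. The labels do not say that the numbers pair the arrays, and these values cannot settle it. With the replicate block, 425 genes changed, 1 homing gene (Cxcr5) passed, 6 list genes passed, and the Itga4 change of -0.38 had an adjusted p of 0.118. With trend and robust settings 1558 genes and 23 list genes passed, and the Itgb1 change of -0.29 did. With the dimmer 50% of genes left out 1295 genes and 23 list genes passed, and Itgb1 again at -0.29, while Ccr9, Itgal and Itgb7 had no value. With the dimmer 25% left out 18 list genes passed. Cd69, Icam1, Itgad, Tln2 and Pecam1, which did not pass over all genes, each passed with at least one of these filters on dim genes, and Cd69 and Pecam1 also with trend and robust settings. The cause of these shifts was not tested, other than fewer genes being tested under the filters and fewer arrays when one was left out. Low signal limits Ccr9, Itgb7 and Itgal, which lay below the array medians.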

Other observations

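Gene families next to the homing genes were looked up by name after the results were known, and none of these counts is independent of them. Of 31 semaphorins, plexins and neuropilins, which steer moving cells, 1 rose and 2 fell (9.68%, beside 3.49% of all genes). Plxna2, a semaphorin receptor, was at 7.40, 7.41 and 7.40 in Cre and at 6.17, 6.31 and 6.18 in EV, a rise of 2.27-fold (limma adjusted p = 0.00013). Sema5a fell 2.03-fold, from 4.999 ± 0.10 to 3.98 ± 0.17 (SD, n = 3; limma adjusted p = 0.00197), both levels below the array medians. Both passed in all 6 fits with 1 array left out, whereas Sema6d, which fell 1.33-fold, passed only without Cre replicate 3. None of 21 Eph receptors and ephrins passed in limma (4 at an unadjusted p below 0.05, beside 16.1% of all genes), and none of 10 laminin chains did (0 at an unadjusted p below 0.05).

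Of 32 subunits of heterotrimeric G proteins, 1 rose and 3 fell (12.5%, beside 3.49% of all genes). Besides Gnai1 and Gna13, Gng12, a gamma subunit, fell 1.87-fold, from 7.35 ± 0.13 to 6.44 ± 0.05 (SD, n = 3; limma adjusted p = 0.00109), and passed in all 6 fits with 1 array left out. Gnao1 fell 1.24-fold (limma adjusted p = 0.0328), a call lost in all 6. Of 71 receptors with Gpr names, 2 rose and 1 fell (4.23%, near the share over all genes). Gpr174, a receptor for lysophosphatidylserine and for CCL21, was at 4.92, 4.81 and 4.49 in Cre and at 3.73, 3.98 and 3.70 in EV, a rise of 1.92-fold from a dim level (limma adjusted p = 0.00752) that passed in all 6. Gpr65, an acid-sensing receptor, rose 1.27-fold and lost the call in all 6, and Gpr63 fell 1.41-fold and kept it only without Cre replicate 1.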
